A study of Mus musculus with 31 samples.

Results

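Meis1, Pbx2, Pbx3, Hoxa5, Hoxa7, Hoxa9, Hoxa10 and Hoxb4, homeobox genes of blood stem cells, were followed through 4 microarray experiments on fetal liver hematopoietic stem cells (FL HSCs) and mouse embryonic fibroblasts (MEFs). The genes were taken by name, with earlier results of these data known, and are 8 of the 18193 genes that a single symbol names on this Affymetrix mouse genome array. All 20 probe sets of these genes were taken. Of these, 17 carry the symbol in the platform annotation and 3 are tied to Meis1 only by the study's own probe set lists. Those lists class 4 of the 6 Meis1 probe sets as intronic, meaning that they lie wholly within an intron on the coding strand, and the others as mRNA probe sets, and the classes are kept apart here. The mRNA ones are called Meis1 exonic, which reads the spliced mRNA, and Meis1 alternative exon, which by the study's annotation could read an alternative 3′ exon or an intron of a longer isoform. The intronic ones are called Meis1 intronic a to d, a being the brightest, and the plot of log2 changes gives their identifiers. No list class was used for the remaining 14 probe sets, whose place in the transcript was not analysed here.

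The experiments compared Crebbp+/- FL HSCs (2 samples) with those of WT littermates (2 samples), Ep300+/- FL HSCs (2 samples) with WT littermates (2 samples), Cdkn1a-/- FL HSCs (4 samples) with WT (3 samples), and Crebbp+/- MEFs (4 samples) with WT MEFs (4 samples). The Crebbp and Ep300 animals, MEFs included, were on a C57BL/6 background, whereas the Cdkn1a-/- animals and their controls were B6/129Sv and came as separate purchased stocks, so that stock and genotype cannot be told apart. Every sample came from embryos 14.5 days post coitus. A FL HSC sample pooled the Sca-1+, Lin-, AA4.1+, c-Kit++ cells sorted from 15 embryos after freezing and thawing of the livers, and each MEF sample was the culture of 1 embryo, with 1 embryo of each genotype from each of 4 litters. In all of them the mutation is carried by every cell of the animal from conception, so an effect within the sorted cell and one of the surrounding tissue cannot be told apart. Since pools and cultures were compared, p-values measure the spread between these samples and not between single embryos.

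MEIS and PBX proteins belong to the TALE class of homeodomain factors, which bind DNA together with HOX proteins and with each other, and raise the otherwise low DNA sequence preference of the HOX partner. MEIS1 and the 5′ members of the HoxA cluster, HOXA9 above all, are high in stem cells, decline as blood cells mature, and drive myeloid leukemia when they stay on. Crebbp encodes a histone acetyltransferase that transcription factors recruit as a coactivator, Ep300 encodes its closest paralog, and Cdkn1a encodes the cell cycle inhibitor p21.

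Levels below are log2 values as the authors deposited them. They come from GCRMA, a method that subtracts background according to probe sequence, aligns the arrays by quantile normalization and combines the probes of a set into 1 value. Each experiment was normalized on its own, so a level is comparable only between samples of the same experiment. A probe set was tested where its highest sample reached log2(100), the minimum intensity of the study's methods (6.64 on this scale). The Crebbp and Ep300 FL HSC experiments were fitted together, so a sample of either experiment could bring a probe set into both tests. A call needed an adjusted p under 0.05 from limma, over all probe sets tested, and a fold change over 1.5. Because a call was rare, probe sets past an unadjusted p under 0.05 and the same fold are counted as well. Of the 20 probe sets, 3 stayed below the minimum in every sample of the series, namely a dim intronic probe set of Meis1, Hoxa10 1446408_at and Hoxb4 1451761_at.

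The stem and progenitor markers and the fibroblast markers fitted the cell labels. The 4 stem and progenitor markers on the array averaged 10.9 to 11.3 in the FL HSC samples of the Crebbp and Ep300 experiments and 13.2 to 13.4 in those of the Cdkn1a experiment, while the 5 fibroblast markers averaged at most 3.0 there. In MEFs the fibroblast markers averaged 13.5 to 14.2 and the stem and progenitor markers at most 3.7. WT sample 3 of the Cdkn1a experiment stood apart, with 3 erythroid markers at a mean of 11.2, against at most 3.7 in the other 6 samples, 3 hepatocyte markers at 14.2 against 5.2 to 9.3, and 3 macrophage markers at 12.2 against 6.8 to 7.6. Its 3 granulocyte and 3 megakaryocyte markers averaged 13.2 and 9.3, against 9.5 to 10.9 and 7.0 to 7.4 in the other 6 samples. The Cdkn1a results are therefore also given without WT sample 3. In WT samples 1 and 2 the hepatocyte markers averaged 5.6 and 5.2, still below the 7.3 to 9.3 of the Cdkn1a-/- samples. In the Crebbp FL HSC experiment the 3 hepatocyte markers averaged 3.1 in WT sample 1 and 7.6 in WT sample 2. Crebbp+/- samples 1 and 2 had 6.1 and 6.4. The part of these markers in the results was not tested. The brightest Crebbp probe set outside the intronic list had 11.95 and 11.66 in Crebbp+/- FL HSCs, against 12.07 and 11.41 in WT, with overlapping groups, but had 9.48, 9.50, 9.42 and 9.38 in Crebbp+/- MEFs against 10.34, 10.15, 10.31 and 10.15 in WT MEFs. The Ep300 probe set had 9.46 and 9.47 in Ep300+/- FL HSCs, against 9.53 and 9.60 in WT, with no overlap and an adjusted p of 1.00 in limma. Cdkn1a had 6.56, 6.34, 8.07 and 5.30 in the samples labelled Cdkn1a-/-, against 7.66, 8.17 and 8.86 in WT, so the sample labelled Cdkn1a-/- 3 lay among the WT values. Where these probe sets lie relative to the deleted parts was not analysed here.

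Of the 8 genes, 7 have a start site in the RefSeq promoter table (build GRCm38.p6), and Pbx3 has none there. The windows of 250 bases before and 50 bases after the annotated start of Meis1 (chr11:19018920-19019219, minus strand) and of Hoxa5 (chr6:52204538-52204837, minus strand) are shown. Of the members, only these genes had probe sets lower past the unadjusted p and fold in Crebbp+/- FL HSCs, as described next. At Meis1 these did not include the exonic probe set. The windows were picked by that outcome, so their motifs are only a description. Capitals mark matches on either strand to TGACG, the half-site of the cAMP response element bound by the CREB factors that recruit CREBBP, and to CCAAT.
Meis1: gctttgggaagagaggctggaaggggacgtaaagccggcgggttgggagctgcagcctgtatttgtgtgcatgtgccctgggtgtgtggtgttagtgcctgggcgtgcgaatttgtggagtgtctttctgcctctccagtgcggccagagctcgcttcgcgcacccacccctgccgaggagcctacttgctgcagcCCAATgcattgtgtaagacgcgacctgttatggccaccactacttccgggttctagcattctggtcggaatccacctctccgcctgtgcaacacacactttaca
Hoxa5: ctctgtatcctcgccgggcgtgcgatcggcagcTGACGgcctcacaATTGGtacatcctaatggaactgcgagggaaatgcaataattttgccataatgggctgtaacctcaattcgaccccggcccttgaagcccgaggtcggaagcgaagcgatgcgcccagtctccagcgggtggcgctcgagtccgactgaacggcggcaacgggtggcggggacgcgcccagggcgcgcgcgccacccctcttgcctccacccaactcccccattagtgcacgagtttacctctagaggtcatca
TGACG was found in the Hoxa5 window and in none of the other 7 windows of the members (Hoxa10 has a pair of starts), and 20.8% of all 32851 RefSeq windows hold it. CCAAT was found in the windows of Meis1, Hoxa5 and 1 start of Hoxa10, against 37.4% of all windows. The full element TGACGTCA (1.79% of all windows), the MEIS core TGACAG (19.2%) and the PBX-HOX composite TGATTNAT (3.22%) were found in no member window, TGACG overlapping the full element by design. The Meis1 window is that of a start inside the gene, which spans chromosome 11 positions 18880428 to 19019651.

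At 4 of its 5 measurable probe sets, Meis1 was lower in both Crebbp+/- FL HSC samples than in both WT samples, though none passed the adjusted threshold. The share of all probe sets with this order of samples, or the reverse, was not computed. Nothing is therefore read from the count, or from groups of 2 samples that do not overlap at other members below. Meis1 intronic a had 9.46 and 9.50 in Crebbp+/- samples 1 and 2, against 10.53 and 10.46 in WT. Both Crebbp+/- pools were lower than both WT pools, by 0.96 to 1.07 within pairs. The log2 change was -1.02, a 2.02-fold lower level (limma adjusted p = 0.0513, standard error 0.13).

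The other measurable intronic probe sets had the same order of samples. Meis1 intronic b had 6.92 and 6.08 in Crebbp+/- samples, against 7.99 and 7.52 in WT, a log2 change of -1.26 (limma adjusted p = 0.0508, standard error 0.14). Meis1 intronic c had 6.70 and 6.40 in Crebbp+/- samples, against 7.72 and 7.35 in WT, a log2 change of -0.98 (limma adjusted p = 0.0509, standard error 0.12). At both, no Crebbp+/- pool reached the level of a WT pool, and Crebbp+/- sample 2 was below the minimum intensity, so the size of the change there depends on the background.

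The mRNA probe sets of Meis1 gave unequal values. Meis1 alternative exon had 6.08 in both Crebbp+/- samples, against 7.27 and 7.48 in WT. Its log2 change was -1.29 (limma adjusted p = 0.0508, standard error 0.14), of a size that is not exact, since both Crebbp+/- values lie below the minimum intensity. Meis1 exonic had 6.86 and 7.09 in Crebbp+/- samples, against 6.88 and 7.58 in WT. These values overlapped between genotypes, and the log2 change of -0.26 (limma adjusted p = 0.368, standard error 0.15) was within the spread. Whether the exonic and the intronic probe sets differ in their change was not tested. The alternative exon, intronic a and intronic c probe sets were picked by the study for their change on these very samples, so their direction is no independent evidence. The 2 arrays of a sample differed by a median of 0.20 and by at most 1.42 over the member probe sets of this experiment.

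In Ep300+/- FL HSCs the log2 change was 0.12 at Meis1 intronic a, -0.11 at intronic c and -0.22 at Meis1 alternative exon, while intronic b was higher. Meis1 intronic a had 10.33 and 9.97 in Ep300+/- samples, against 10.37 and 9.68 in WT. Meis1 alternative exon had 7.60 and 7.14 in Ep300+/- samples, against 7.62 and 7.56 in WT. Meis1 intronic b stood higher in both pairs, with 8.18 and 7.50 in Ep300+/- samples, against 7.61 and 7.21 in WT, and its log2 change of 0.43 had an adjusted p of 1.00 in limma. The difference between the Crebbp and the Ep300 effect was tested in the joint fit. It was -1.69 at Meis1 intronic b (standard error 0.20, adjusted p = 0.149), -1.14 at intronic a (0.18, adjusted p = 0.161), -1.07 at alternative exon (0.20, adjusted p = 0.181) and -0.87 at intronic c (0.17, adjusted p = 0.181). All 4 passed an unadjusted p under 0.05, none passed after adjustment, and Meis1 exonic gave -0.15 (adjusted p = 0.789).

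**Figure D1:**
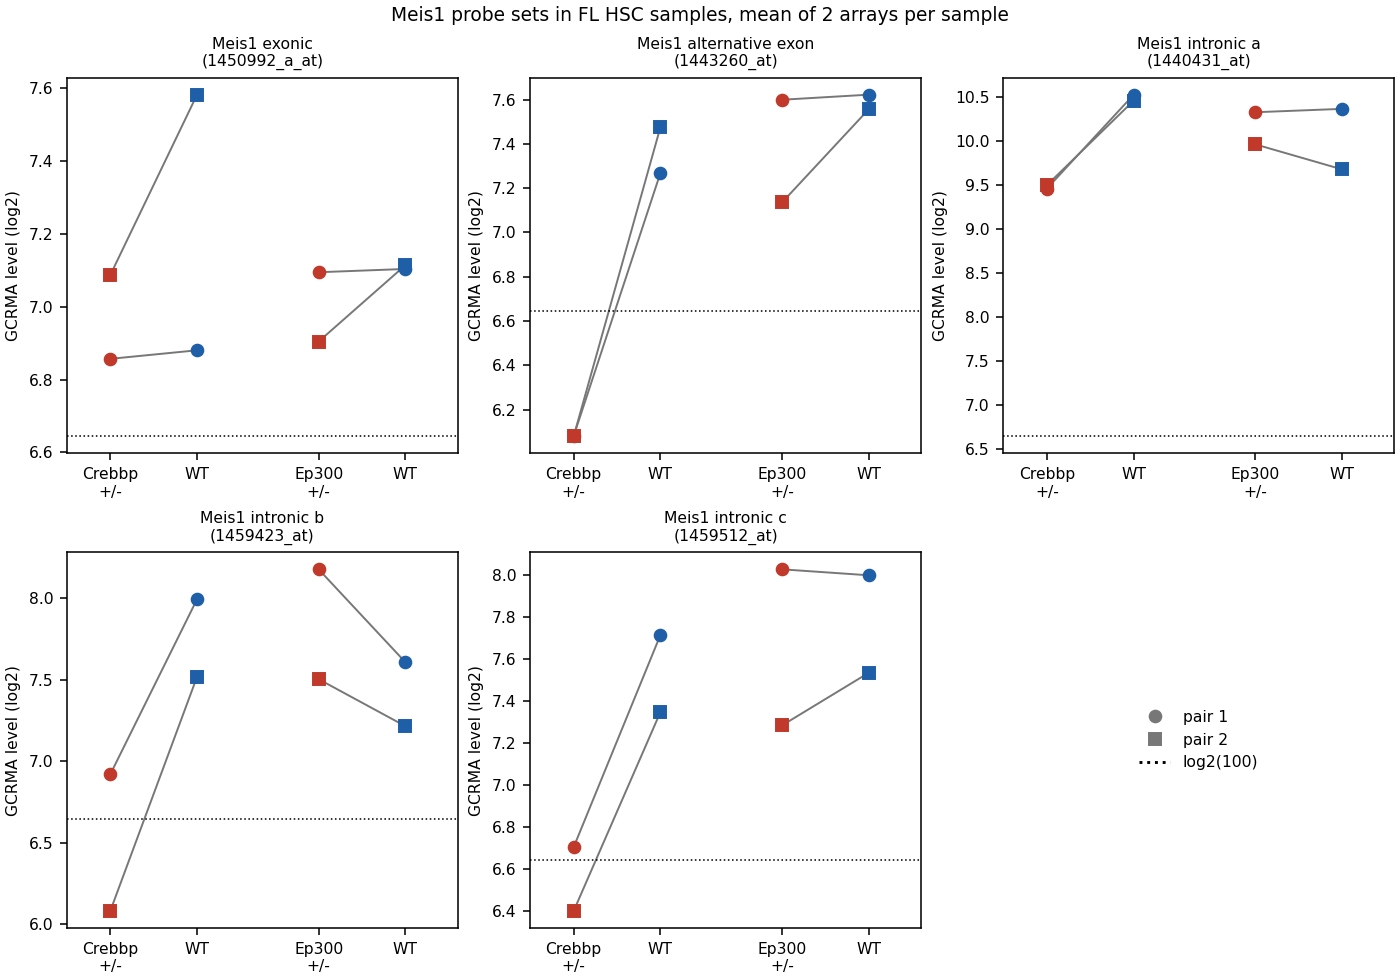
GCRMA log2 level of 5 Meis1 probe sets (y axis) in the FL HSC samples of the Crebbp and Ep300 experiments (x axis), 1 point per sample as the mean of its 2 arrays, with a line joining the mutant and WT sample of a pair. At Meis1 alternative exon and the 3 intronic probe sets both Crebbp+/- samples lie below both WT samples, while the differences at Meis1 exonic and in the Ep300 pairs are smaller.

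Pbx3, which encodes a TALE partner of MEIS1 and HOXA9, was higher in both Crebbp+/- FL HSC samples at each of its probe sets, without passing the adjusted threshold. Pbx3 1447640_s_at had 9.69 in both Crebbp+/- samples, against 8.87 and 9.20 in WT. The groups did not overlap, and the log2 change of 0.66 had a standard error of 0.13 and an adjusted p of 0.0797 in limma. Pbx3 1421193_a_at had 5.86 and 4.91 in Crebbp+/- samples, against 4.59 and 3.53 in WT. This was a log2 change of 1.33 (limma adjusted p = 0.138, standard error 0.38) whose values all lie below the minimum intensity, where the size of a change is not exact. The probe set was tested only because Ep300+/- sample 2 reached 6.67. In Ep300+/- FL HSCs 1447640_s_at had 9.27 and 9.79, against 9.21 and 9.83 in WT, within-pair differences of 0.06 and -0.03. The Crebbp effect on 1447640_s_at exceeded the Ep300 effect by 0.64 (limma adjusted p = 0.235, standard error 0.18). At 1421193_a_at the Ep300 pairs went opposite ways, by -0.875 and 0.7555. There the Crebbp effect exceeded the Ep300 effect by 1.39 (limma adjusted p = 0.334, standard error 0.54). Pbx2, the broadly expressed TALE partner, lay within 0.06 of WT in Crebbp+/- FL HSCs at all 3 of its probe sets. Its brightest, 1418894_s_at, had 11.16 and 10.91 in Crebbp+/- samples, against 11.12 and 11.01 in WT.

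Among the Hox genes, the brighter Hoxa5 probe set was lower than WT in both pairs of each heterozygote, near the minimum intensity. HOXA5 promotes myeloid over erythroid development in human progenitors. Hoxa5 1448926_at had 5.86 and 6.23 in Crebbp+/- samples, against 6.58 and 6.82 in WT, with no overlap. The log2 change was -0.65 (limma adjusted p = 0.0870, standard error 0.14), and its size is not exact, since 3 of the 4 values lie below the minimum. In the Ep300 experiment it had 7.28 and 6.54 in Ep300+/- samples, against 7.57 and 7.21 in WT, lower in both pairs but overlapping between groups. The log2 change there was -0.48 (limma unadjusted p = 0.0170 and adjusted p = 1.00), and the Crebbp effect minus the Ep300 effect was -0.17 (limma adjusted p = 0.713). The arrays of Crebbp+/- sample 1 differed by 1.42 at this probe set, the largest gap between technical replicates of any member. The second Hoxa5 probe set, 1443803_x_at, lay below the minimum in all samples of both experiments. Its within-pair differences were -0.53 and -0.36 in Crebbp+/- and 0.04 and -0.45 in Ep300+/- FL HSCs.

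Hoxa9, the HoxA gene most tied to MEIS1 in stem and leukemic cells, was bright and differed little. Hoxa9 1455626_at had 11.04 and 11.16 in Crebbp+/- samples, against 11.32 and 11.49 in WT, and 11.77 and 11.65 in Ep300+/- samples, against 11.61 and 11.56 in WT. The Crebbp groups did not overlap and neither did the Ep300 groups, which ran the other way. The log2 change was -0.31 in Crebbp+/- (limma adjusted p = 0.159, standard error 0.10), and it differed from the Ep300 effect by -0.44 (limma adjusted p = 0.280). The dimmer Hoxa9 1421579_at differed in opposite directions, by -0.20 and 0.06 in the Crebbp pairs and by 0.18 and -0.12 in the Ep300 pairs. Hoxa10, its 5′ neighbor in the cluster, had 9.30 and 9.00 in Crebbp+/- samples at 1431475_a_at, against 9.30 and 9.43 in WT, nearly all of the difference being in pair 2. Hoxb4, known for expanding stem cells when overexpressed, differed in opposite directions in the 2 pairs, with 5.83 and 6.47 at 1460379_at in Crebbp+/- samples, against 7.05 and 6.03 in WT. Hoxa7, the 3′ neighbor of Hoxa9, lay below the minimum in all 8 samples of both experiments, at 3.72 to 5.74.

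**Figure D2:**
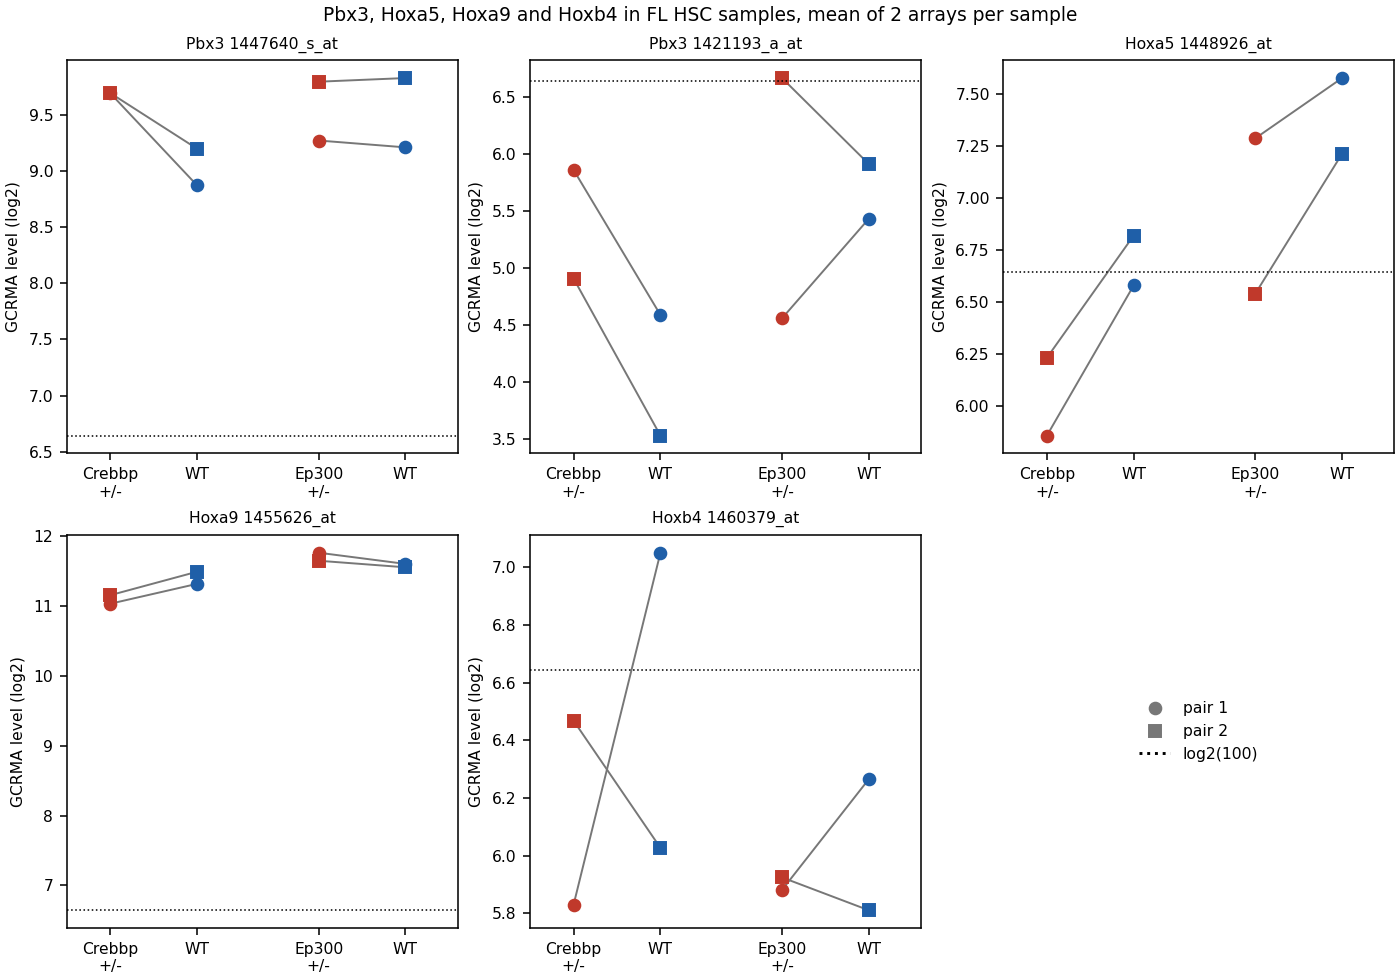
GCRMA log2 level (y axis) of Pbx3, Hoxa5, Hoxa9 and Hoxb4 probe sets in the FL HSC samples of the Crebbp and Ep300 experiments (x axis), 1 point per sample as the mean of its 2 arrays, lines joining a pair. Both Pbx3 probe sets are higher and Hoxa5 and Hoxa9 are lower in both Crebbp+/- samples, and the 2 Hoxb4 pairs cross.

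Counted over the members, 15 of the 20 probe sets were tested in Crebbp+/- FL HSCs and limma called 0, where 0.383% of all probe sets tested were called. Past an unadjusted p under 0.05 and the fold, 5 were lower, against 5.32% of all probe sets, and 2 were higher, against 4.68%. The 5 were the 4 Meis1 probe sets and Hoxa5, and the 2 were those of Pbx3. Since 3 of the 4 Meis1 probe sets were picked by the study for their change on these samples, nothing is read from this count or from the median of the members. By sign alone, 11 lay below WT and 4 above it, where 42.3% of all 13332 probe sets tested lay below. The median of the members was -0.26, against 0.05 over all probe sets tested. In Ep300+/- FL HSCs limma called 0 of 15 members (0% of all), and none passed the unadjusted rule, against 0.36% of all probe sets lower and 0.42% higher. The median was 0.01, against -0.02 over all probe sets. For the difference between the 2 effects 0 members were called (0% of all), while 4, the same Meis1 probe sets, passed the unadjusted rule as lower, against 4.79% of all, and 1, Pbx3 1447640_s_at, as higher, against 5.19%. Probe sets of the same gene share its transcript and are not independent counts, and the 3 comparisons share samples. Fewer cells of a type and less RNA per cell cannot be told apart in these pools. The 3 megakaryocyte markers also averaged less in Crebbp+/- FL HSCs, 3.9 and 4.1 against 4.4 and 4.5 in WT. The lower mean rests mostly on Gp9, which had 5.37 and 5.85 against 6.84 and 6.80. Only Gp9 was tested, since the other markers stayed below the minimum intensity. In Ep300+/- FL HSCs the 3 megakaryocyte markers averaged 4.51 and 4.13, against 4.55 and 4.35 in WT, also lower in both pairs. The part of these markers in the Meis1 result was not tested.

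In the Cdkn1a experiment 17 member probe sets were tested. Meis1 exonic had 10.78, 10.30, 10.36 and 10.53 in Cdkn1a-/- samples, against 10.36, 9.88 and 9.48 in WT. The ranges overlapped, since WT sample 1 lay above Cdkn1a-/- sample 2. The log2 change was 0.59 (limma unadjusted p = 0.0369 and adjusted p = 0.646), and without WT sample 3 it was 0.38 (adjusted p = 0.933). Without the sample labelled Cdkn1a-/- 3 it was 0.63 (adjusted p = 0.805), and 0 members were called. The intronic probe sets depended on WT sample 3 as well. Meis1 intronic c had 10.13, 10.85, 10.29 and 10.20 in Cdkn1a-/- samples, against 10.35, 10.41 and 8.48 in WT, so that the log2 change of 0.62 (adjusted p = 0.724 in limma) was -0.012 without WT sample 3. Meis1 intronic b had 8.46, 8.96, 8.84 and 8.54 in Cdkn1a-/- samples, against 8.53, 8.68 and 6.68 in WT, a log2 change of 0.73 (adjusted p = 0.720 in limma) and of 0.09 without that sample. Meis1 intronic a had 11.27, 11.49, 11.58 and 11.08 in Cdkn1a-/- samples, against 11.46, 11.49 and 10.38 in WT. WT sample 3, in which the erythroid, hepatocyte and macrophage markers were highest, was thus the lowest of 7 samples at each of these intronic probe sets. The part of those markers was not tested.

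The remaining members stayed close together in Cdkn1a-/- FL HSCs. Hoxa9 1455626_at had 13.38, 13.32, 13.35 and 13.18 in Cdkn1a-/- samples, against 13.46, 13.26 and 12.71 in WT. Hoxb4 1460379_at had 8.66, 8.91, 8.69 and 8.78 in Cdkn1a-/- samples, against 8.81, 8.57 and 8.49 in WT. Both pairs of groups overlapped, as did those of Pbx2, Pbx3, Hoxa5, Hoxa7 and Hoxa10. The dim second probe set of Hoxa5, 1443803_x_at, had a log2 change of 0.33 and Hoxa7 one of 0.34, with adjusted p of 0.720 and 0.756 in limma, and without WT sample 3 that of Hoxa7 was 0.05. Of the 17 probe sets limma called 0 (0.405% of all), and past the unadjusted rule 1 was higher (2.22% of all), the exonic Meis1 probe set, and 0 were lower (1.82% of all). By sign, 5 lay below WT and 12 above it or level with it, where 37.8% of the 20962 probe sets tested lay below. The median of the members was 0.13, against 0.05 over all probe sets tested.

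**Figure D3:**
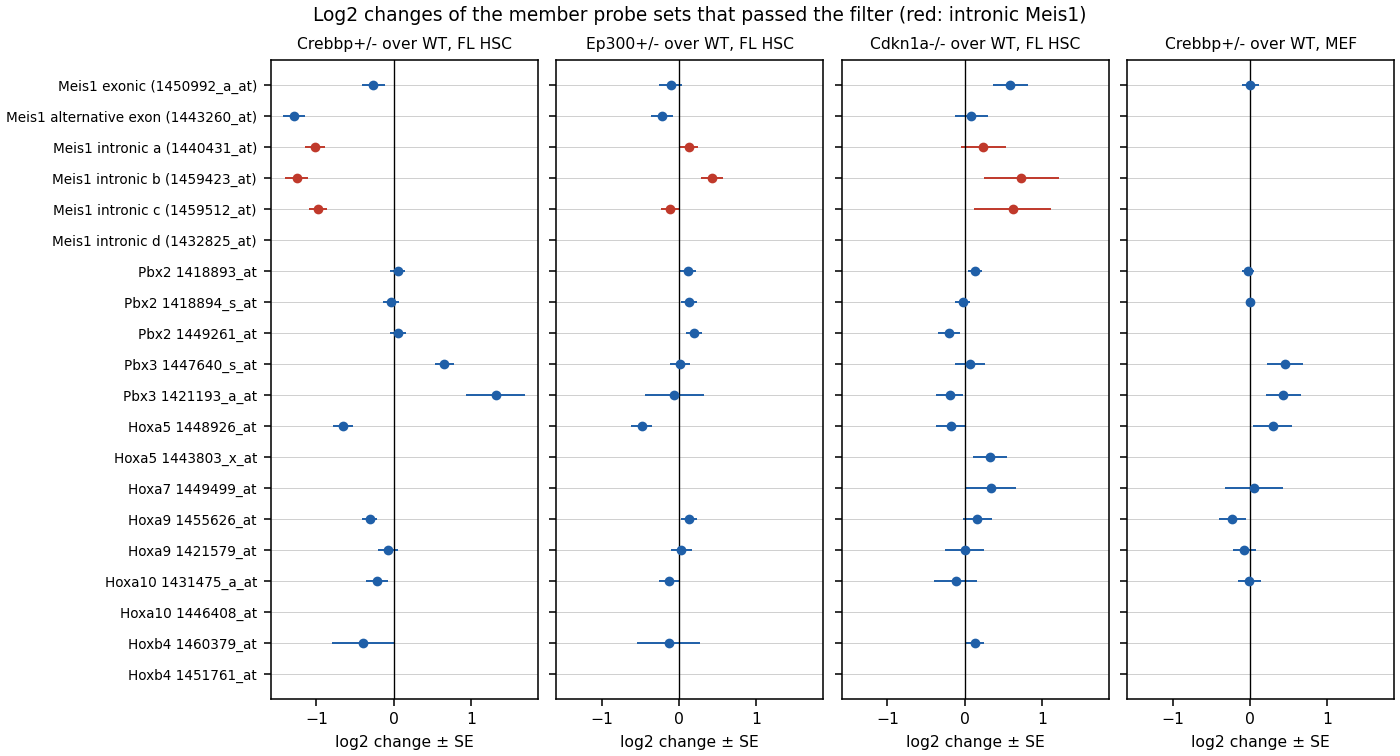
Log2 change of the mutant over WT (x axis, mean with its standard error from limma) for each member probe set (rows) that passed the filter in the 4 comparisons (panels), intronic Meis1 in red. The 4 Meis1 points near -1 and the 2 Pbx3 points above 0 in Crebbp+/- FL HSCs lie closer to 0 in the Ep300 panel. No difference between the Crebbp and the Ep300 effect passed after adjustment. Rows without a point were not tested.

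In MEFs, of the Meis1 probe sets only the exonic one reached the minimum intensity. Meis1 exonic had 9.31, 9.32, 9.47 and 9.30 in Crebbp+/- MEFs of litters 1 to 4, against 9.65, 9.24, 9.40 and 9.08 in WT MEFs. The ranges overlapped, and the adjusted p was 0.993 in limma. The other 5 Meis1 probe sets lay between 1.83 and 4.46 in all 8 cultures and were not tested. Meis1 intronic a, for instance, had 2.64, 2.77, 2.82 and 3.34 in Crebbp+/- MEFs, against 3.70, 2.79, 2.80 and 3.00 in WT MEFs. The effect seen at intronic Meis1 in Crebbp+/- FL HSCs could thus not be measured in MEFs.

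Pbx3 differed between litters in MEFs. Pbx3 1447640_s_at had 11.07, 10.73, 10.91 and 11.14 in Crebbp+/- MEFs, against 11.48, 10.14, 10.30 and 10.14 in WT MEFs. It was higher in Crebbp+/- in litters 2, 3 and 4 and lower in litter 1, where the WT culture was the highest of all 8. The log2 change was 0.45 (limma adjusted p = 0.760, standard error 0.23), and 0.73 without litter 1 (adjusted p = 0.235). Pbx3 1421193_a_at had 9.78, 9.64, 9.76 and 10.17 in Crebbp+/- MEFs, against 10.20, 9.06, 9.14 and 9.22 in WT MEFs, a log2 change of 0.43 (limma adjusted p = 0.760) and of 0.72 without litter 1 (adjusted p = 0.232). Hoxa5 1448926_at had 8.04, 7.63, 7.94 and 8.96 in Crebbp+/- MEFs, against 8.70, 7.18, 7.37 and 8.14 in WT MEFs. Its log2 change of 0.30 (limma adjusted p = 0.810) became 0.62 without litter 1 (adjusted p = 0.247). Hoxa7, with 6.13, 5.82, 6.20 and 6.69 in Crebbp+/- MEFs, against 7.53, 5.36, 5.35 and 6.38 in WT MEFs, was likewise higher in litters 2, 3 and 4 and lower in litter 1. The WT culture of litter 1 was the highest WT culture at both Pbx3 probe sets, Hoxa5 1448926_at, Hoxa7, Hoxa9 1455626_at and Hoxa10 1431475_a_at. Of the 10 members tested limma called 0 (0% of all), and 0 passed the unadjusted rule, against 0.645% of all probe sets lower and 0.316% higher. Without litter 1, 3 passed it as higher, both Pbx3 probe sets and Hoxa5. Over all probe sets, 289 of 15308 passed it in either direction without litter 1, against 149 of 15502 with all litters.

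**Figure D4:**
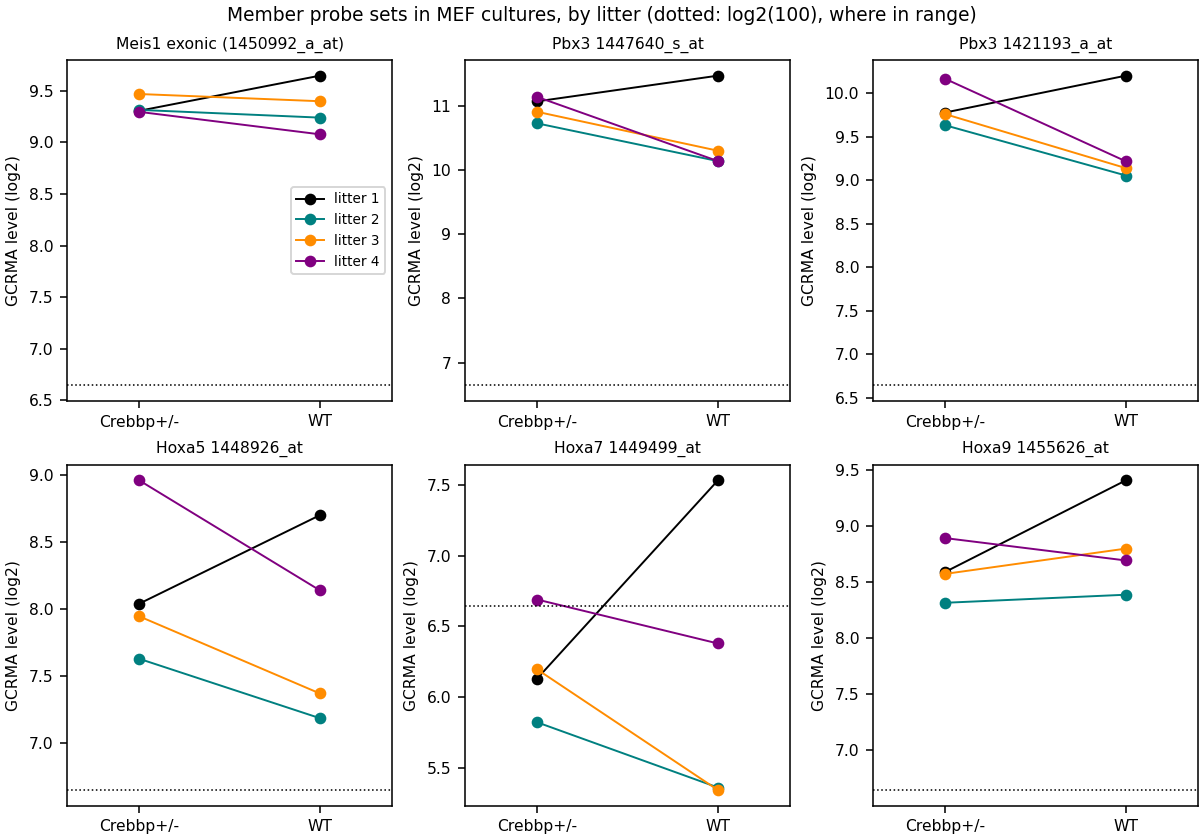
GCRMA log2 level (y axis) of 6 member probe sets in Crebbp+/- and WT MEF cultures (x axis), with a line and color per litter and the minimum intensity dotted. For Pbx3, Hoxa5 and Hoxa7, litters 2 to 4 run higher in Crebbp+/- and litter 1 runs lower, its WT culture being the highest WT culture.

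To ask where the members stood in each cell type, every probe set was ranked within its own array sample, from 0 for the dimmest to 100 for the brightest of 45037 probe sets, and WT FL HSCs (7 samples) were set against WT MEFs (4 samples). A probe set counted as apart when all FL HSC samples lay on one side of all MEF samples and the medians differed by at least 10 points. No test was run, since cell type, RNA amplification and the separate normalization cannot be told apart. The labels describe amplified RNA for the MEFs as for the FL HSCs, whereas the methods state that MEF RNA was not amplified. The minimum intensity fell at the 74.6 to 75.2 percentile in the Crebbp experiment, 72.9 to 73.0 in the Ep300 experiment, 56.8 to 57.9 in the Cdkn1a experiment and 67.7 to 67.8 in MEFs.

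Meis1 intronic a, b and c ranked higher in FL HSCs than in MEFs, and Meis1 exonic ranked the other way, while Meis1 intronic d was not apart (46.0 in FL HSCs and 41.5 in MEFs). Meis1 intronic a had a median rank of 90.6 in FL HSCs (79.6 to 95.0) and of 37.0 in MEFs (33.8 to 51.6). Meis1 intronic c had 79.3 in FL HSCs (67.3 to 81.6) and 4.35 in MEFs (4.34 to 4.36). Meis1 intronic b and Meis1 alternative exon were apart in the same direction, by 29.2 and 27.1 points. In MEFs these 4 probe sets ranked below the minimum intensity, so their MEF ranks are those of background and the distances are not exact. Meis1 exonic had a median of 75.9 in FL HSCs (73.4 to 81.1) and of 86.8 in MEFs (84.9 to 88.9), lower in FL HSCs by 10.9 points, just over the distance required, and with only the WT FL HSC samples of the Crebbp experiment the difference was -8.25 and the call was lost. In the Crebbp and Ep300 experiments it lay close to the minimum intensity, while Meis1 intronic a lay far above it.

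The Pbx genes split between the cell types. Pbx2 1418894_s_at had a median rank of 96.1 in FL HSCs and of 69.4 in MEFs, and 1449261_at had 89.4 in FL HSCs and 65.2 in MEFs. Pbx3 1421193_a_at ran the other way, with 61.8 in FL HSCs and 85.6 in MEFs, whereas the brighter 1447640_s_at had 87.9 in FL HSCs and 92.0 in MEFs, below all MEF samples in rank but by only 4.06 points. On leaving out Crebbp WT sample 2 or either Ep300 WT sample, that difference was -10.02 and counted as apart. In MEFs Pbx2 1449261_at ranked below the minimum intensity, as did Pbx3 1421193_a_at in the FL HSCs of the Crebbp and Ep300 experiments. Hoxa9 1455626_at was the highest-ranked member in FL HSCs, with a median of 97.1 (94.0 to 97.6), against 82.5 in MEFs (79.8 to 87.4). Hoxb4 1460379_at had 68.6 in FL HSCs and 48.5 in MEFs, where it was at 3.43 to 3.49 in all 8 cultures, far below the minimum. Hoxa5, Hoxa7 and the brighter Hoxa10 probe set overlapped between the cell types. In all 8 of 20 member probe sets ranked higher in FL HSCs, against 22.1% of all probe sets, and 3 ranked lower, against 22.3%. Of the 3, Hoxa10 1446408_at never reached the minimum, so its rank is that of background.

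**Figure D5:**
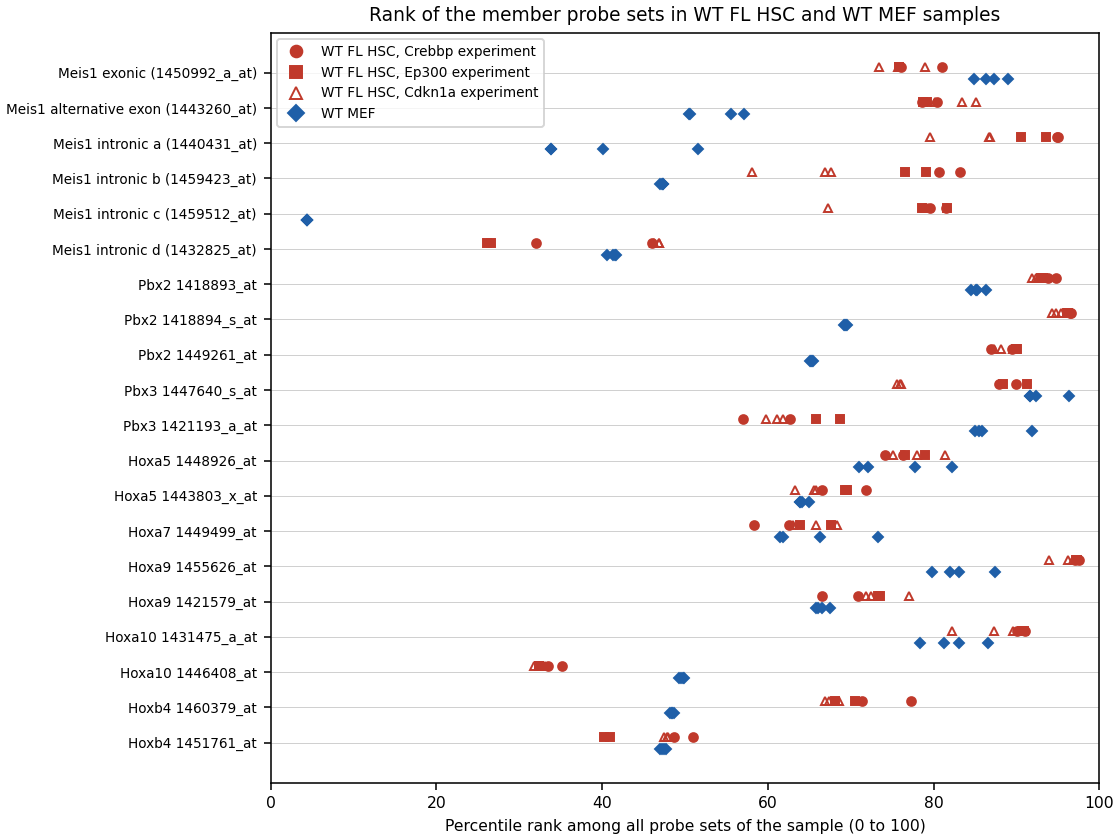
Percentile rank of each member probe set (rows) among all probe sets of its sample (x axis, 0 to 100) in WT FL HSC samples (red, symbols by experiment) and WT MEF samples (blue diamonds). Meis1 alternative exon, 3 intronic Meis1 probe sets, 2 of Pbx2, Hoxa9 1455626_at and Hoxb4 1460379_at lie at least 10 points to the right in FL HSCs, and exonic Meis1, Pbx3 1421193_a_at and Hoxa10 1446408_at lie so in MEFs.

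Within WT FL HSCs, Hoxa9 1455626_at and Pbx2 1418894_s_at ranked highest of the members, with medians of 97.1 and 96.1 and ranges that overlapped. Pbx2 1418893_at (92.9), Meis1 intronic a (90.6), Hoxa10 1431475_a_at (90.0), Pbx2 1449261_at (89.4) and Pbx3 1447640_s_at (87.9) followed and overlapped with their neighbors. A rank also reflects how well a probe set binds its target, so this is no order of transcript abundance.

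The exonic and the intronic Meis1 probe sets had different companions. Likeness was measured as Pearson's r over the 8 samples of the Crebbp and Ep300 experiments, each centred on its experiment's mean, among 13331 other probe sets. The probe sets most like Meis1 exonic were those of 2810408B13Rik, Baz1a, Gm26910, Timm17b and Wdr45 (r of 0.99 to 0.98). Those most like Meis1 intronic a were a probe set of Malat1, a long non-coding RNA retained in the nucleus, one each of Rbm39, a splicing factor, and Peli1, a ubiquitin ligase, and 2 without a symbol, of which 1 is on the study's intronic list (r of 0.99 to 0.98). With 8 samples in 4 groups, such values are a description of shared genotype and sample differences.

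Other genes of the pathway were taken from lists of TALE partners, upstream regulators, targets and partners, and the remaining Hox genes. In Crebbp+/- FL HSCs 12 of 16 upstream regulators, among them Kmt2a and Ezh2, and 15 of 16 targets and partners, among them Flt3 and Kit, were tested. None was called and none passed the unadjusted rule, with medians of 0.08 and 0.06, against 0.05 over all probe sets. Of 28 other Hox genes on the array only Hoxa3 and Hoxb3, 3′ genes of their clusters, were tested. Hoxb3 had 6.34 and 6.28 in Crebbp+/- samples, against 6.90 and 6.98 in WT, a log2 change of -0.63 (limma adjusted p = 0.0797) with both Crebbp+/- values below the minimum intensity. Hoxa3 averaged 7.86 in Crebbp+/- and 8.36 in WT FL HSCs, a log2 change of -0.50 (limma adjusted p = 0.0838). Of 5 TALE partners on the array, only Pknox1 was tested, with 8.28 and 6.19 in Crebbp+/- samples, against 7.82 and 3.27 in WT, a log2 change of 1.69 (limma adjusted p = 0.174) with a WT sample 2 far below the rest. In Ep300+/- FL HSCs none of these genes passed either rule.

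In the Cdkn1a experiment Pbx4, a TALE gene best known from the testis, passed the unadjusted rule. It had 5.60, 5.60, 5.39 and 5.50 in Cdkn1a-/- samples, against 7.40, 7.18 and 6.47 in WT, with no overlap. The log2 change was -1.50 (limma adjusted p = 0.0671, standard error 0.22), and -1.77 without WT sample 3. All Cdkn1a-/- values and WT sample 3 lie below the minimum intensity, which leaves its size uncertain. In MEFs, 11 other Hox genes were tested and 1 passed the unadjusted rule. Hoxd13, the 5′ gene of its cluster, had 7.76, 8.58, 7.99 and 6.88 in Crebbp+/- MEFs, against 8.24, 9.00, 8.71 and 8.20 in WT MEFs, lower in every litter (log2 change -0.74, limma adjusted p = 0.564).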

How the data were processed

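RNA of 23 samples was read on 31 Affymetrix arrays. The authors deposited log2 values from GCRMA, run on 4 groups of arrays separately. The GCRMA version is not given in the sources used here, and presence calls were not used. From these values, 64 control probe sets were left out, the 2 arrays of each Crebbp or Ep300 FL HSC sample were averaged (r of 0.989 to 0.994 between them), and limma 3.58.1 in R 4.3.3, checked on simulated data, was run on probe sets with at least 1 sample at log2(100) or above. The Crebbp and Ep300 FL HSC samples were fitted together with a block per pair of sample numbers, since the methods use paired tests. Samples of a number deviated together (r of 0.71 in Crebbp and 0.38 in Ep300). With 2 samples per genotype the other pairing gives the same r with the opposite sign, so this is weak evidence for the pairs. In MEFs the same check matched litters 2 and 4 best with their own litter, and litters 1 and 3 with another. Cdkn1a was unpaired, and MEFs had a block per litter, which the labels give. Calls used Benjamini-Hochberg adjustment. Of 45037 probe sets, 34945 have 1 symbol, 932 several and 9160 none. On the arrays 11199 to 11512 probe sets reached log2(100) in the Crebbp experiment, 12042 to 12363 in the Ep300, 18947 to 19522 in the Cdkn1a and 14380 to 14684 in the MEF experiment. How precise a value is depends on how many arrays were read. Named genes are the members, the mutated genes, and list genes past an unadjusted p under 0.05 and a fold over 1.5, to which Hoxa3 was added after its values were seen. Members and lists were chosen with earlier results of these data known. Levels were compared only within an experiment, ranks also between cell types.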

Additional observations from a re-analysis of the deposited data

Results flagged for a closer look

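Of 36 groups of 4 samples checked among the members, 4 had a sample far from the other 3, where chance gives about 1 in 20. In WT MEFs litter 1 had 11.48 at Pbx3 1447640_s_at, against 10.14 to 10.30 in the other litters, and 10.20 at Pbx3 1421193_a_at, against 9.06 to 9.22. In Crebbp+/- MEFs litter 3 had 9.47 at Meis1 exonic, against 9.30 to 9.32 in the other litters, and 6.98 at Pbx2 1418894_s_at, against 6.91 to 6.92. The litter 3 values lie closer to their neighbors than those of litter 1 do.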

How the results depend on the processing

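The count of members called in Crebbp+/- FL HSCs, 0 as reported, was the value that depended most on the processing. It became 4 with a mean of at least log2(100) in place of the highest sample, 4 with an interquartile range of at least 0.5 as well, and 4 with samples centred on their medians. In each case these were Meis1 alternative exon and Meis1 intronic a, b and c, and the first 2 of these settings test fewer probe sets. It became 5 with an intensity trend and robust prior, which added Pbx3 1447640_s_at, and where the Crebbp effect was set against that of Ep300, this prior gave 2, Meis1 intronic a and b. The cause was not tested. Over all settings with a test, the adjusted p ranged over 0.0074 to 0.376 at Meis1 alternative exon and over 0.0035 to 0.505 at intronic a. The upper ends came without the replicate block, where limma called 0 members, with 5 past the unadjusted rule in Crebbp+/- FL HSCs and 3 for the difference. Without the block, 690 of all 13332 probe sets passed the unadjusted rule in Crebbp+/- FL HSCs and 460 for the difference. Over all probe sets, 51 of 13332 were called in Crebbp+/- FL HSCs as reported, 0 without the replicate block and 877 with the intensity trend. The mean filter called 222 of 11702, the interquartile range filter 324 of 3666 and the centring 208 of 13332. For the difference, the intensity trend called 62 of 13332.

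The counts for Ep300+/-, Cdkn1a-/- and Crebbp+/- MEF stayed at 0 under each alternative that left members to test, and members apart by rank numbered 10 to 13, against 11 as reported. By the paired t-test of the methods 2 members, Meis1 intronic a and intronic c, passed the unadjusted threshold in Crebbp+/- FL HSCs and 0 passed after Benjamini-Hochberg. Over all probe sets, 199 of 2845 passed that unadjusted threshold and 0 passed after adjustment. Of 28 single changes of at least 0.25 or an unadjusted p under 0.05, 1 turned its sign, Meis1 intronic c in the Cdkn1a experiment (0.62 as reported and -0.012 to 0.95 on leaving out 1 sample, the lowest without WT sample 3). Among the 44 smaller ones the sign turned in 65 of 578 values. In the Cdkn1a experiment no member passed the interquartile range filter, alone or before the methods' t-test. Leaving out a pair number in both FL HSC experiments left no residual degrees of freedom, so only log2 changes were computed there. Leaving out 1 pair of 1 experiment, an alternative chosen after seeing the data, called 0 members. The Cdkn1a numbers 1 to 3 are only names (r of -0.04 to 0.29), and a replicate block on them called 0 members and 6 of all probe sets, against 85 without it.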
